A study of Mus musculus with 6 samples.

Results

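The genes described here are 10 genes of polyamine and arginine metabolism, out of 46983 genes in the count table: the antizyme inhibitor Azin1, ornithine decarboxylase Odc1, the antizymes Oaz1 and Oaz2, the synthesis enzymes Srm, Sms and Amd1, the catabolic enzyme Sat1, and the arginases Arg1 and Arg2. They were chosen by function, with Azin1 as the leading gene because it lies about 4 Mb from the deleted gene, and with values of AEG-1 KO against WT already known. All 10 were matched by symbol and all 10 passed the filter on low counts. The RNA-seq libraries came from macrophages derived from bone marrow in culture. Marrow came from the femurs of C57BL/6 mice, either wild-type (WT, 3 libraries) or AEG-1 knockout (AEG-1 KO, 3 libraries), and grew for 7 days in medium holding 20% L929 conditioned medium, a source of macrophage growth factor, and 10% serum, with no treatment. Mtdh encodes AEG-1. The labels do not say which part of Mtdh was deleted or whether the deletion was limited to some cells. They also do not give the age of the mice or say whether replicates came from separate animals. Each p-value therefore sets the genotype difference only against how far these libraries vary, and that variation may be technical.

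Polyamines (putrescine, spermidine and spermine) are small positively charged molecules that bind nucleic acids and are needed for growth and translation. Arginase releases ornithine from arginine, ornithine decarboxylase turns ornithine into putrescine, and spermidine synthase and spermine synthase add aminopropyl groups that come from S-adenosylmethionine through Amd1. Antizymes bind ornithine decarboxylase, send it to the proteasome and slow polyamine uptake, and antizyme inhibitors, which resemble the decarboxylase without its activity, bind antizyme in its place. In macrophages arginase competes with nitric oxide synthase for arginine, and Arg1 is widely used as a marker of alternative activation.

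Antizyme is made only when ribosomes shift reading frame at a stop codon in its mRNA, a step that polyamines promote. The sites are shown because the Oaz1 site is the same, base for base, in a processed copy of the gene, Oaz1-ps. Each is a window of 30 transcript bases from the GENCODE transcripts, 5′ to 3′, with the stop codon of the first frame in capitals. In GRCm38 they lie on chromosome 10, bases 80828283 to 80828312 (Oaz1, plus strand), chromosome 17, bases 17345919 to 17345948 (Oaz1-ps, minus strand), and chromosome 9, bases 65686260 to 65686289 (Oaz2, plus strand), each within 1 exon.
Oaz1: cggtggtgctccTGAtgtccctcacccacc
Oaz1-ps: cggtggtgctccTGAtgtccctcacccacc
Oaz2: ctgtggtgctccTGAtgcccctcacccact

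The gene for S-adenosylmethionine decarboxylase, Amd1, has a still closer copy, Amd2, which is a gene of 1 exon on the same chromosome. The transcripts aligned over 3198 bases with 10 single-base differences and 4 gap bases, and the longest stretch without a difference was 930 bases. Only 1 difference fell in the 1002 coding bases of Amd1, and the windows around it are shown with that base in capitals (chromosome 10, minus strand, bases 40290172 to 40290201 for Amd1 and 35710750 to 35710779 for Amd2).
Amd1: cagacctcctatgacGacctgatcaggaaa
Amd2: cagacctcctatgacCacctgatcaggaaa

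Libraries held 42548170 to 58947230 counts, and 1 CPM (reads scaled to library size with TMM, a normalization for library composition) stood for 42.6 to 58.5 reads. Mtdh had 254 to 273 CPM in the WT libraries and 0.333 to 0.517 CPM in those of AEG-1 KO, so every library carried the Mtdh level of its label. Defining macrophage markers were abundant in both genotypes, with a summed level of 18260 to 18680 CPM over 10 markers in WT and 18730 to 19340 CPM in AEG-1 KO. Of these 10, 4 were called higher (Csf1r, Mertk, Mrc1 and Cd14) and 1 lower (Adgre1), and Lyz2 and Adgre1 made up most of the sum. Over all tested genes, 3.31% were called higher and 3.04% lower. Several lists of markers of other cells had a higher sum in AEG-1 KO. The summed level of 12 monocyte and progenitor markers was 57.1 to 61.0 CPM in WT, against 85.2 to 88.6 CPM for AEG-1 KO, with 4 of the 8 tested called higher and Ctsg under 10 reads in each library. Over 11 neutrophil markers it was 449 to 458 CPM and 506 to 555 CPM, with 6 called higher and 1 lower. The largest part of that sum was Csf3r, at 234.1 to 252.5 CPM in WT and 250.0 to 261.0 CPM in AEG-1 KO, which was not called. Over 12 stromal and endothelial markers the sum was 11.95 to 14.13 CPM and 16.86 to 18.97 CPM, with 3 of 9 tested called higher. Of the megakaryocyte genes, Pf4 had 59.6 to 69.7 CPM in WT and 92.9 to 99.7 CPM in AEG-1 KO and was called higher. The other, Itga2b, had 0.530 to 0.763 CPM and 0.888 to 1.08 CPM and was not called. The erythroid genes (Hbb-bs, Hba-a1, Klf1) and the lymphoid genes Cd3e, Cd3g and Ncr1 had under 10 reads in each library. Over 6 lymphoid markers the sum was 1.81 to 2.13 CPM and 2.71 to 3.15 CPM, and over 6 dendritic cell markers 1.85 to 4.12 CPM and 2.09 to 3.52 CPM. None of the 3 lymphoid or 4 dendritic cell markers tested was called with edgeR, DESeq2 (which gave 2 dendritic cell markers no adjusted p) or limma-voom, and 3 and 0 had an unadjusted p under 0.05 with edgeR. No proliferation gene of 7 was called with edgeR, DESeq2 or limma-voom, and 1 had an unadjusted p under 0.05 with edgeR.

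AEG-1 KO libraries were set against WT libraries to find which of these transcripts differ when macrophages lack AEG-1. Azin1 and Amd1 were lower and Arg2 was higher in AEG-1 KO, and the other 7 genes did not meet the threshold. That is 3 of 10 genes at an adjusted p of 0.05 in the edgeR quasi-likelihood fit over all genes, where 6.35% of all 16115 tested genes met it. The groups did not overlap in 7 of the 10, where they did not overlap in 26.8% of all genes. Because the members were chosen with results of this contrast known, their fold changes are given as a description, without p-values, and nothing is read from these counts. The median log2 fold change was -0.15 over the 10 genes and 0.01 over all tested genes. In bulk RNA, fewer cells of a type and less RNA per cell cannot be told apart.

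**Figure D1:**
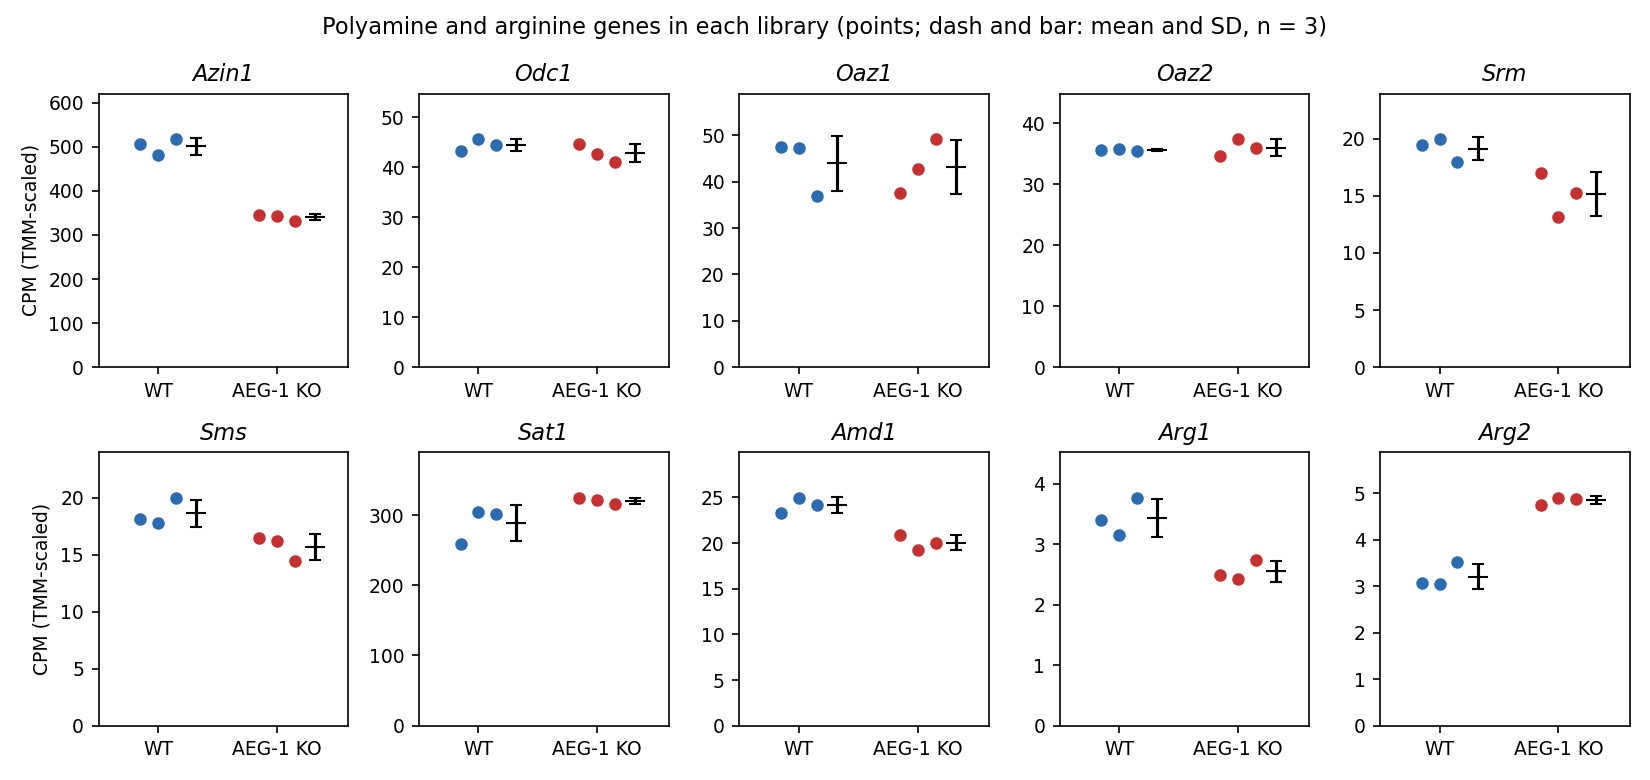
TMM-scaled CPM (vertical axes, each from 0) of the 10 genes in each WT (blue) and AEG-1 KO (red) library, with the group mean and SD (dash and bar, n = 3). The groups are apart for Azin1 (481 to 517 CPM against 333 to 346 CPM) and Arg2 (3.04 to 3.52 CPM against 4.75 to 4.91 CPM), and overlap for Odc1, Oaz1 and Oaz2.

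Of the genes that set antizyme control, Azin1 (ENSMUSG00000037458, GRCm38 chromosome 15, 38487427 to 38519266, minus strand) was the one that differed. It had 505, 481 and 517 CPM in WT replicates 1 to 3 and 346, 342 and 333 CPM in AEG-1 KO replicates 1 to 3, from 14575 to 28116 reads a library. All 3 AEG-1 KO libraries lay below all 3 WT libraries, with a gap several times the spread within either genotype. The means were 501 ± 18.8 CPM and 340.4 ± 7.03 CPM (SD, n = 3), a log2 fold change of -0.56 ± 0.04 (SE), or 67.9% of WT. Leaving out any 1 library kept it at -0.59 to -0.54. Its first exon region overlaps an antisense gene, Gm49077, and the strand setting of the counting is not given in the sources used here. No other gene matched its transcripts at 95% identity over 100 bases or more, apart from that overlap.

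Odc1, the enzyme that antizyme removes and that Azin1 resembles, had nearly the same level in both genotypes. Its values were 43.2, 45.6 and 44.4 CPM in WT, against 44.6, 42.6 and 41.0 CPM for AEG-1 KO, and the groups overlapped. The log2 fold change was -0.06 ± 0.05 (SE). Counts of Odc1 are uncertain because 13 other genes, mostly processed copies, share a near-identical stretch. When reads of the 8 with a match of 500 bases or more were added (a sum added once the values were known) Odc1 itself held 43.4% of the sum in WT and 41.9% in AEG-1 KO, and the log2 fold change of the sum was 0.00 ± 0.05. The ratio of Azin1 to Odc1 per kilobase of exon was 5.74 to 6.37 in the WT libraries and 4.22 to 4.42 in the AEG-1 KO libraries. With Odc1 nearly level, this ratio restates the Azin1 difference and is no separate result.

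The antizymes Oaz1 and Oaz2, both inhibitors of ornithine decarboxylase, did not separate the genotypes. Oaz2 was the steadiest gene of the 10 in WT, with 35.6, 35.9 and 35.4 CPM, and had 34.6, 37.4 and 36.0 CPM in AEG-1 KO. Its log2 fold change was 0.02 ± 0.05 (SE). Oaz1 varied more between replicates than between genotypes, at 47.5, 47.4 and 37.0 CPM in WT, against 37.6, 42.7 and 49.2 CPM for AEG-1 KO, for a log2 fold change of -0.03 ± 0.12 (SE). Its sign was not stable, running from -0.14 to 0.06 with 1 library left out. The libraries lowest in Oaz1 were those in which GC-rich transcripts read lowest. The slope of log2 CPM, relative to each gene's mean, on transcript GC content was -0.12 per 10 percentage points in WT replicate 3 and -0.07 in AEG-1 KO replicate 1, against 0.11 in WT replicate 1 and 0.08 in AEG-1 KO replicate 3. The longest Oaz1 transcript is 55.7% GC. With a GC and length trend removed from all libraries, its log2 fold change was -0.03 ± 0.075 (SE). The longest Srm transcript is 59.8% GC. Srm was lowest within WT in replicate 3 (18.0 CPM), but highest within AEG-1 KO in replicate 1 (17.0 CPM). Whether GC content accounts for the spread of Oaz1 was not tested.

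Oaz1 counts stand for a small part of the reads from these sequences. Oaz1-ps, which has the frameshift window shown above and matches Oaz1 over 685 bases at 99.27% identity, had 162 to 209 CPM in WT, against 174 to 199 CPM for AEG-1 KO. Oaz1 therefore held 18.6% of the summed reads in WT and 18.9% in AEG-1 KO, nearly the same division in both genotypes. The sum had a log2 fold change of -0.05 ± 0.10 (SE).

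**Figure D2:**
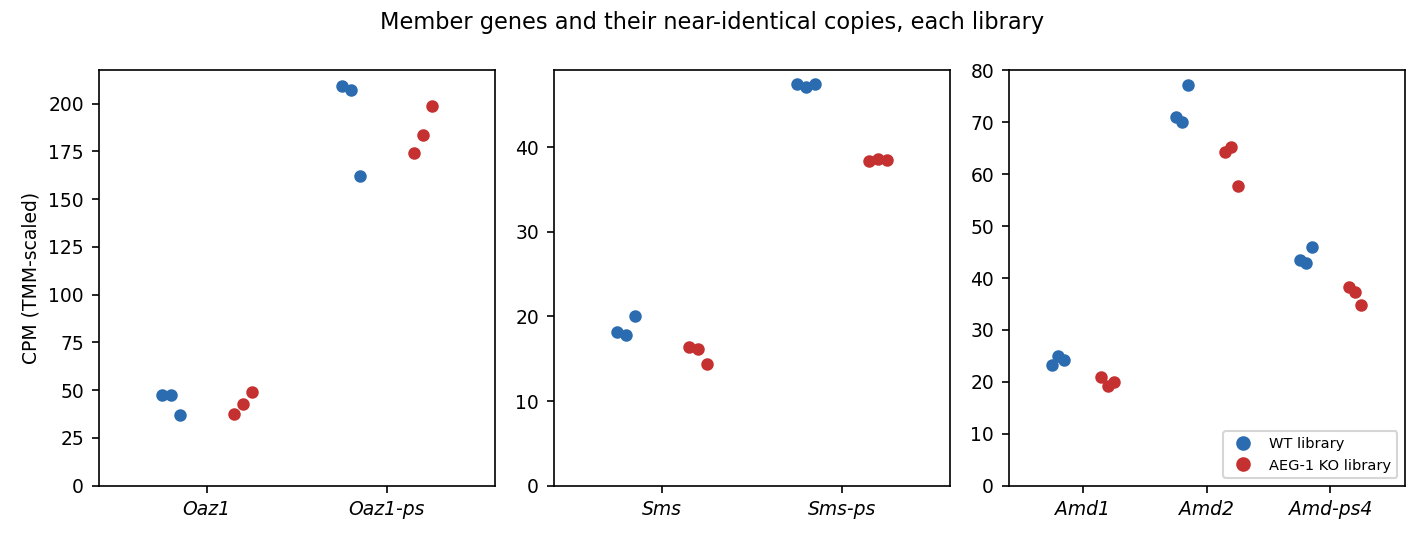
TMM-scaled CPM (vertical axes from 0) of Oaz1, Sms and Amd1 and of their near-identical copies in each WT (blue) and AEG-1 KO (red) library. In each panel the copy holds more reads than the gene, and Sms-ps is at 47.1 to 47.5 CPM in WT, against 38.3 to 38.6 CPM for AEG-1 KO.

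The 3 genes that build spermidine and spermine all read lower in AEG-1 KO, but only Amd1 met the threshold. Their groups did not overlap, which was also so for 26.8% of all tested genes, and they were chosen with this contrast known. Amd1 (ENSMUSG00000075232, chromosome 10, 40287458 to 40302186, minus strand), which supplies the aminopropyl donor, had 23.3, 25.0 and 24.2 CPM in WT, against 20.9, 19.3 and 20.0 CPM for AEG-1 KO. Every AEG-1 KO value lay below every WT value. The means were 24.1 ± 0.86 CPM and 20.0 ± 0.84 CPM (SD, n = 3), a log2 fold change of -0.27 ± 0.06 (SE). Amd1 was past the threshold in 2 of the 6 fits that left out a library; without WT replicate 2 or AEG-1 KO replicates 1, 2 or 3 it was not, at log2 fold changes of -0.24, -0.30, -0.25 and -0.27. Reads counted to the copies of Amd1 were also lower in AEG-1 KO. How multiply matching reads were handled is not given, so these counts may not keep Amd1 and its copies apart. Amd2 had 70.1 to 77.2 CPM in WT, against 57.8 to 65.3 CPM for AEG-1 KO, and Amd-ps4 had 42.9 to 46.0 CPM and 34.8 to 38.3 CPM. Of the reads counted to this family, 16% in WT and 15.6% in AEG-1 KO were counted to Amd1. The family sum was 152 ± 5.31 CPM in WT against 129 ± 6.02 CPM (SD, n = 3), a log2 fold change of -0.24 ± 0.05 (SE) that met the threshold. This sum was also added once the values were known, so its call is a description.

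Sms, spermine synthase on chromosome X, had 18.2, 17.8 and 20.0 CPM in WT, against 16.4, 16.2 and 14.4 CPM for AEG-1 KO. All AEG-1 KO libraries were below all WT libraries, and the log2 fold change of -0.25 ± 0.08 (SE) did not meet the threshold. Most reads of this sequence were counted elsewhere: Sms-ps, identical to Sms over 1101 bases, had 47.5, 47.1 and 47.5 CPM in WT, against 38.3, 38.6 and 38.5 CPM for AEG-1 KO. The Sms-ps values were nearly equal within each genotype and did not overlap between them. Summed with 5 copies, the family had 72.7 ± 1.44 CPM in WT, against 59.6 ± 0.88 CPM for AEG-1 KO (SD, n = 3). The log2 fold change of this sum was -0.29 ± 0.04 (SE), which met the threshold. The sum was added once the values were known, so its call is a description and no test of Sms. Sms itself held 25.6% of the family's reads in WT and 26.3% in AEG-1 KO.

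Srm, spermidine synthase, has no near-identical copy in the annotation. It had 19.4, 19.9 and 18.0 CPM in WT, against 17.0, 13.1 and 15.3 CPM for AEG-1 KO, with AEG-1 KO replicate 2 the lowest. The AEG-1 KO values lay below the WT values but were spread more widely, at 15.1 ± 1.94 CPM against 19.1 ± 1.03 CPM (SD, n = 3). The log2 fold change of -0.34 ± 0.09 (SE) missed the threshold. It met it without WT replicate 3 (log2 fold change -0.38) or AEG-1 KO replicate 1 (-0.43), with DESeq2 or no filter on low counts (both -0.35), and with the GC and length trend removed (-0.37).

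Sat1, which acetylates spermidine and spermine for export or breakdown, was the most abundant transcript of the set per kilobase. It had 259, 305 and 301 CPM in WT, against 325, 321 and 316 CPM for AEG-1 KO. WT replicate 1 stood below the other libraries, while the 3 AEG-1 KO values lay close together and just above the highest WT value. The log2 fold change was 0.15 ± 0.06 (SE), which did not meet the threshold, and it was 0.07 without WT replicate 1. A near-identical copy, Gm5552, also held reads, and Sat1 had 88.22% of the summed reads in WT and 86.65% in AEG-1 KO. The sum had a log2 fold change of 0.18 ± 0.06 (SE) and did not meet the threshold.

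Arg1 and Arg2 read in opposite directions. Arg2 (ENSMUSG00000021125, chromosome 12, 79130777 to 79156301, plus strand), the mitochondrial arginase, had 3.07, 3.04 and 3.52 CPM in WT, against 4.75, 4.91 and 4.89 CPM for AEG-1 KO, from 137 to 219 reads a library. The AEG-1 KO values were close together and all above WT. The means were 3.21 ± 0.266 CPM and 4.85 ± 0.0862 CPM (SD, n = 3), a log2 fold change of 0.60 ± 0.10 (SE), or 1.52-fold, and it stayed at 0.56 to 0.66 and past the threshold with any 1 library left out. The last exon of Arg2 overlaps Vti1b on the opposite strand over 285 bases, so that without strand the 2 cannot be told apart there. Vti1b had 66.0 to 69.9 CPM in WT, against 63.9 to 67.3 CPM for AEG-1 KO.

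Arg1 (ENSMUSG00000019987, chromosome 10, 24915221 to 24927484, minus strand), the cytosolic arginase, was at a low level in these untreated cells. It had 3.40, 3.15 and 3.77 CPM in WT, against 2.49, 2.42 and 2.74 CPM for AEG-1 KO, from 103 to 184 reads a library. The groups did not overlap, and the log2 fold change of -0.42 ± 0.12 (SE) did not meet the threshold, in the full fit or without any 1 library (-0.49 to -0.36). The ratio of Arg1 to Arg2 was 1.03 to 1.11 in CPM in the WT libraries and 0.493 to 0.562 in the AEG-1 KO libraries. It restates the Arg1 and Arg2 values above and is no separate result. Monocyte, neutrophil and stromal markers were higher in the same AEG-1 KO libraries, by the sums given above, and their part in the arginase values was not tested.

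Per kilobase of exon, which allows levels of different genes to be compared, the 10 genes spanned from 104 ± 9.16 CPM per kilobase for Sat1 to 1.54 ± 0.141 for Arg1 in WT (SD, n = 3). Azin1 was second at 80.1 ± 3.0. Sat1 and Azin1 did not overlap in WT and were further apart in AEG-1 KO, at 116 ± 1.53 and 54.4 ± 1.12. Oaz1, Odc1, Srm and Oaz2 followed at 17.2 ± 2.35, 13.04 ± 0.351, 11.95 ± 0.642 and 11.9 ± 0.0802; of these neighbours, Srm and Oaz2 did not differ beyond their spread. Amd1 came next at 6.82 ± 0.243, then Sms at 3.11 ± 0.198 and Arg2 at 2.25 ± 0.186. In AEG-1 KO, Arg2 lay above Sms, at 3.40 ± 0.0604 against 2.61 ± 0.184. The order below Azin1 rests on the length chosen. Divided by the longest transcript instead, WT levels were 20.11 ± 0.541 for Odc1, 19.33 ± 0.13 for Oaz2, 17.4 ± 2.38 for Oaz1 and 14.29 ± 0.767 for Srm, which puts Oaz2 above Srm. Arg1 and Arg2 were then level in WT, at 2.33 ± 0.212 and 2.25 ± 0.186, and in AEG-1 KO Sms lay above Arg2, at 4.22 ± 0.298 against 3.40 ± 0.0604. For Oaz1, Amd1, Sms, Odc1 and Sat1 these levels leave out the reads counted to their copies.

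**Figure D3:**
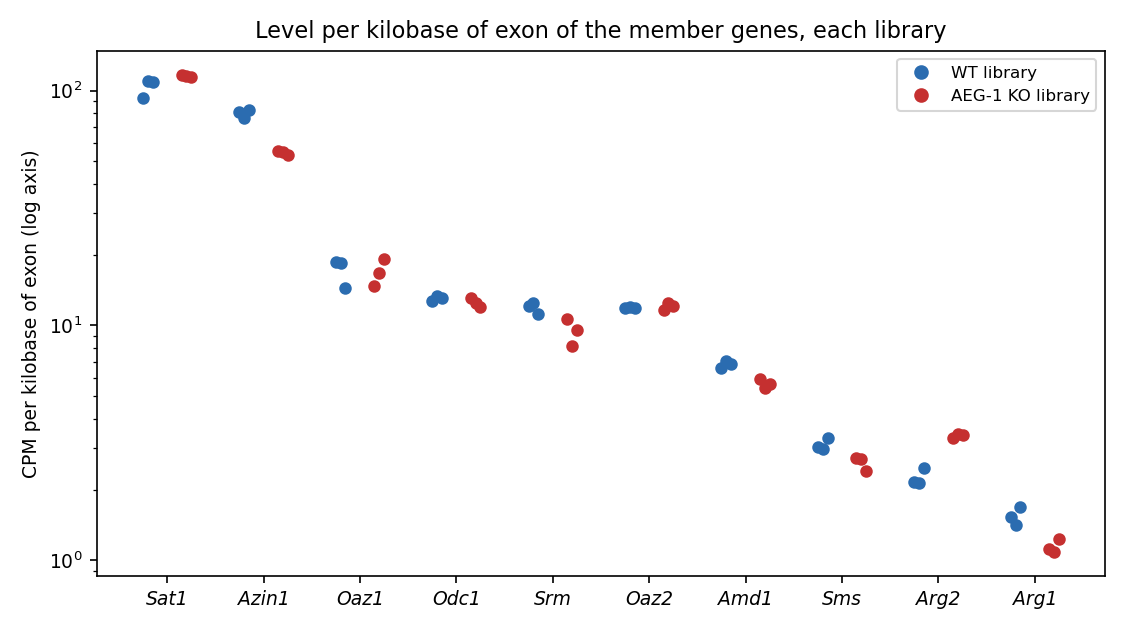
CPM per kilobase of exon (log axis) of the 10 genes, ordered by their WT mean, in each WT (blue) and AEG-1 KO (red) library. Sat1 and Azin1 lie apart from the rest, at means of 104 and 80.1 in WT, and Arg2 is the gene whose AEG-1 KO libraries sit clearly above WT.

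Other genes of polyamine and arginine metabolism were read from lists of 80 genes in 10 groups. Of these 63 were tested, 2 rose, 4 fell and 57 did not pass, so 9.52% were called, beside 6.35% of all genes. Their median log2 fold change was 0.02, against 0.01 over all genes tested. The 17 others had at most 12 reads in any library; among them were the urea cycle genes Otc and Cps1, the neuronal and endothelial nitric oxide synthases Nos1 and Nos3, and the testis antizyme Oaz3.

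Arginine and cationic amino acid transport held 2 of the 4 falls among 10 tested genes. Slc7a1, the main importer of arginine (CAT-1), had 70.0, 66.3 and 67.7 CPM in WT, against 50.4, 47.2 and 50.9 CPM for AEG-1 KO. The groups were far apart, and it fell by 0.46 ± 0.05 on the log2 scale (SE, edgeR adjusted p = 0.000992), also without any 1 library (adjusted p up to 0.00827). Slc7a7, a light chain that exchanges cationic amino acids, fell by 0.23 ± 0.05 (SE, edgeR adjusted p = 0.0332). It passed only without WT replicate 3 among the fits that left out a library; without WT replicates 1 or 2 or AEG-1 KO replicates 1, 2 or 3 its adjusted p was 0.0549 to 0.15. The inducible arginine carrier Slc7a2 was low, at 2.10 to 2.46 CPM in WT, against 2.32 to 2.77 CPM for AEG-1 KO, and the polyamine transporters Atp13a2 and Atp13a3 of the endosome and lysosome did not pass (edgeR adjusted p = 0.659 and 0.105).

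Among genes of proline and creatine metabolism, 1 of 8 tested fell and 1 rose. Aldh18a1, which makes the precursor of proline and ornithine from glutamate, had 33.8, 36.2 and 34.8 CPM in WT, against 25.9, 24.5 and 25.1 CPM for AEG-1 KO. It fell by 0.47 ± 0.05 on the log2 scale (SE, edgeR adjusted p = 0.00114), also without any 1 library (adjusted p up to 0.0113). Gatm, which moves the amidino group of arginine into creatine synthesis, rose from 113 ± 5.01 to 133 ± 2.49 CPM (SD, n = 3), with edgeR adjusted p = 0.0168 at a log2 fold change of 0.24 ± 0.05 (SE). It lost its call without WT replicates 1 or 2 or AEG-1 KO replicates 2 or 3 (adjusted p = 0.0565 to 0.116).

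In the nitric oxide and citrulline cycle, 1 of 5 tested genes fell. Ass1, which rebuilds arginine from citrulline together with Asl, fell from 75.4 ± 2.32 to 65.2 ± 1.19 CPM (SD, n = 3), with edgeR adjusted p = 0.0252 at a log2 fold change of -0.21 ± 0.04 (SE), and lost its call without WT replicate 2 or AEG-1 KO replicates 1, 2 or 3 (adjusted p = 0.064 to 0.13). Nos2, the inducible nitric oxide synthase that competes with arginase, was near the lower end of detection at 1.43 to 1.52 CPM in WT, against 0.491 to 1.11 CPM for AEG-1 KO. Its groups did not overlap and it did not pass (edgeR adjusted p = 0.126 at a log2 fold change of -0.72 ± 0.25 SE).

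Of 4 tested genes of polyamine breakdown and export, none passed in the edgeR fit with all libraries, DESeq2 (which gave 1 of them no adjusted p) or limma-voom, though 1 had an unadjusted p under 0.05 with edgeR. Paox, which oxidizes acetylated polyamines, had 2.78 to 2.82 CPM in WT, against 3.28 to 4.22 CPM for AEG-1 KO (edgeR adjusted p = 0.0572 at a log2 fold change of 0.46 ± 0.12 SE), and passed without AEG-1 KO replicate 1 (adjusted p = 0.0335) and with the GC and length trend removed (0.033). None of 4 hypusine genes passed in the edgeR fit with TMM or with limma-voom, and 1 (Eif5a) had an unadjusted edgeR p under 0.05. Eif5a, the translation factor that carries hypusine, a modification built from spermidine, had 263 to 287 CPM in WT, against 236 to 253 CPM for AEG-1 KO (edgeR adjusted p = 0.0525 at a log2 fold change of -0.18 ± 0.05 SE), and lay close to the threshold, passing in 8 of 16 alternatives. These were edgeR with RLE, upper-quartile or no scaling factors, with no filter or the stricter filter, without WT replicate 3 (adjusted p = 0.0177) and with the GC and length trend removed, and DESeq2. Azin2, the second antizyme inhibitor, was far below Azin1, at 2.38 to 2.75 CPM in WT, against 2.20 to 3.59 CPM for AEG-1 KO.

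Of the S-adenosylmethionine and methionine salvage genes, none of 10 passed in the edgeR fit with TMM or with limma-voom, while 6 had an unadjusted edgeR p under 0.05. Ahcy and Amd2 had the smallest p-values, at edgeR adjusted p = 0.0647 and 0.067 (log2 fold changes of -0.18 ± 0.05 and -0.22 ± 0.06 SE). Both passed with DESeq2 and with the GC and length trend removed, and Ahcy also with the stricter filter on low counts. Amd2 is the near-identical copy of the member Amd1, so its reads may not be separate from those of Amd1. In the network of MYC, a known activator of Odc1, Mxd4, a repressive partner of MAX, was the 1 of 9 tested genes that passed. It rose from 41.4 ± 1.57 to 51.1 ± 4.78 CPM (SD, n = 3), with edgeR adjusted p = 0.0359, and passed only without AEG-1 KO replicate 1 among the fits that left out a library (adjusted p = 0.0578 to 0.112 in the 5 others). Myc itself had 26.3 to 30.9 CPM in WT, against 25.0 to 25.8 CPM for AEG-1 KO (edgeR adjusted p = 0.323). Among 10 known regulators of arginase in macrophages, among them Stat6, Cebpb and Il4ra, none passed with edgeR, DESeq2 or limma-voom, and 3 had an unadjusted edgeR p under 0.05. Irf4 and Stat3 came closest (edgeR adjusted p = 0.118 and 0.135), and Stat3 passed with the GC and length trend removed.

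**Figure D4:**
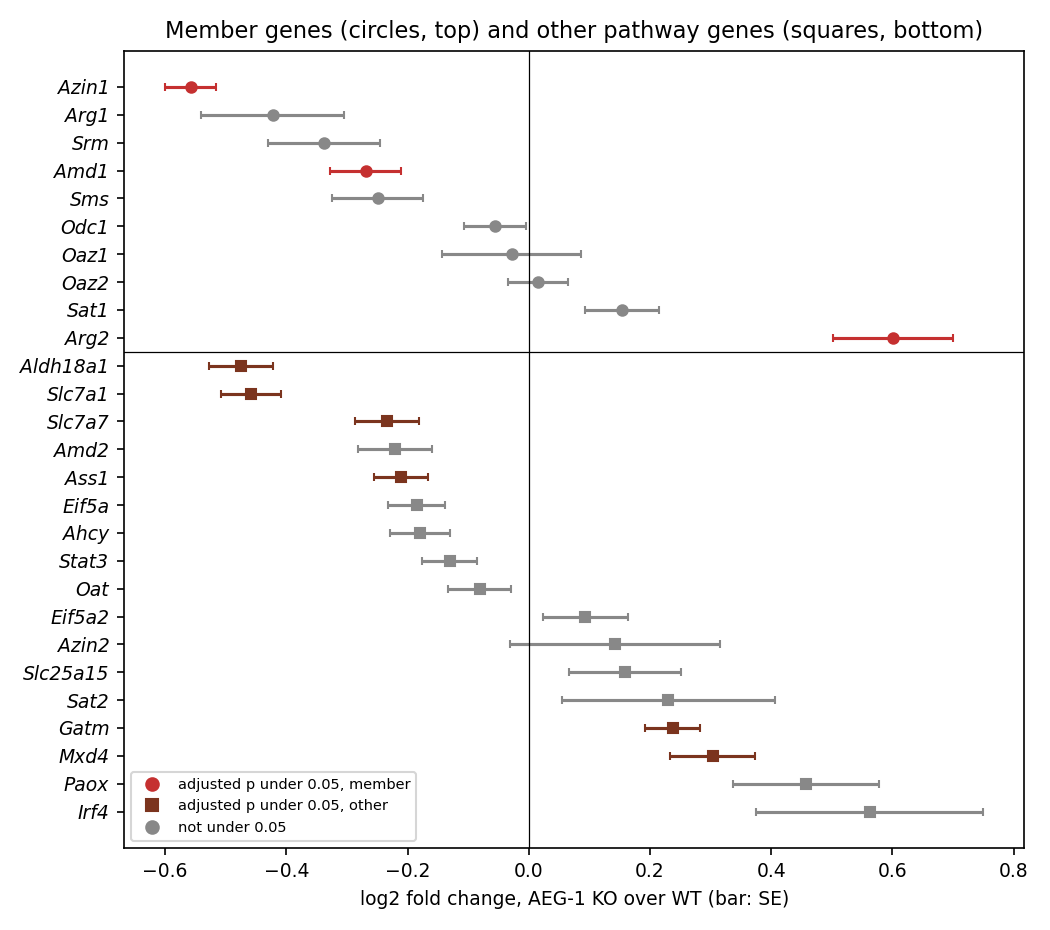
Log2 fold change of AEG-1 KO over WT with its SE (horizontal axis) for the 10 genes (circles) and for those genes of the wider lists that the naming rule took (squares, Nos2 at -0.72 not among them), colored where the adjusted p is under 0.05. Azin1 (-0.56) and Arg2 (0.60) mark the ends of the first set, and Aldh18a1 (-0.47) and Slc7a1 (-0.46) lie lowest among the squares.

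Azin1 starts 4.4 Mb from the start of Mtdh on chromosome 15. Among the 10 tested genes that start within 1 Mb of it, Azin1 included, 2 were called higher, 3 lower and 5 were not called, where 6.35% of all tested genes were called. The neighbours on either side differed less than Azin1. Klf10, a transcription factor gene 196 kb away on the side of Mtdh, rose from 80.7 ± 1.14 to 94.1 ± 2.76 CPM (SD, n = 3), with edgeR adjusted p = 0.0172 at a log2 fold change of 0.22 ± 0.04 (SE). Atp6v1c1, a proton pump subunit gene 174.5 kb away on the other side, fell from 234 ± 4.45 to 202 ± 7.22 CPM (edgeR adjusted p = 0.0183 at a log2 fold change of -0.21 ± 0.04 SE). Both lost their calls without WT replicate 2 or AEG-1 KO replicate 1, Klf10 also without AEG-1 KO replicate 2 (adjusted p = 0.0607 to 0.127) and Atp6v1c1 also without AEG-1 KO replicate 3 (0.063 to 0.0876). Fzd6 and Rims2, 519 and 711 kb away, changed more at low levels, from 0.822 to 0.127 CPM and from 0.306 to 4.47 CPM (edgeR adjusted p = 0.00268 and 3.67e-06). DESeq2 gave Fzd6 no adjusted p. Distance from Mtdh and the lack of AEG-1 cannot be told apart for these genes in this design.

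**Figure D5:**
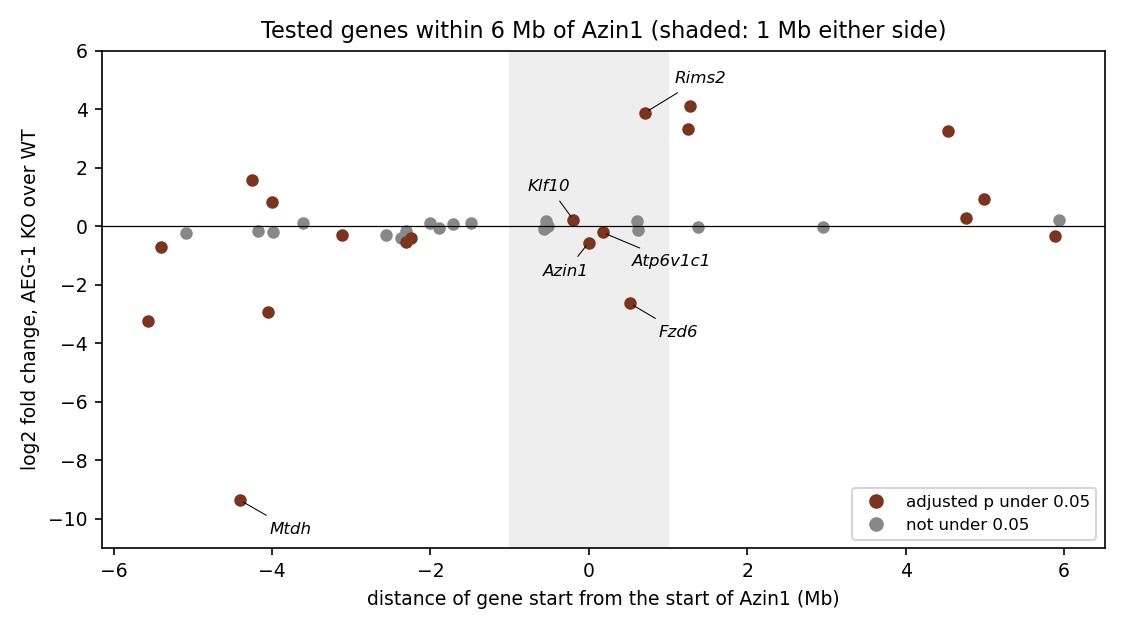
Log2 fold change of AEG-1 KO over WT (vertical axis) of the 39 tested genes that start within 6 Mb of Azin1, against the distance of their start from that of Azin1 in Mb (horizontal axis), with genes at an adjusted p under 0.05 in brown and 1 Mb either side shaded. Called genes (20 of 39, Azin1 and Mtdh included, beside 6.35% of all tested genes) lie on both sides of 0, and Azin1 at -0.56 has neighbours at 0.22 (Klf10) and -0.21 (Atp6v1c1).

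The genes whose pattern over the 6 libraries was most like that of Azin1 were sought among 9126 others with a mean of at least 10 CPM, by the root mean square difference of log2 CPM after centring. They were 2310043P16Rik, Ptges, Pitpnc1, Slc6a12 and Rasgrp1, at 0.03 to 0.04 on the log2 scale. Of these, Ptges encodes a prostaglandin E synthase and Pitpnc1 a phosphatidylinositol transfer protein. None lies on chromosome 15. Pitpnc1 had 261 to 270.0 CPM in WT, against 186 to 192 CPM for AEG-1 KO. Ptges had 17.9 to 18.1 CPM in WT against 11.98 to 12.35 CPM. This likeness describes these 6 libraries and carries no test.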

How the data were processed

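The authors deposited raw read counts per Ensembl gene, whole numbers in 1 table whose 6 columns are the 6 libraries (per the file headers). The submitters' processing notes list FastQC (0.11.2), cutadapt (1.9), Subread, edgeR (3.18.1) and featureCounts (1.4.6-p4), with builds GRCm38 and mm10. Which annotation release was counted, whether strand was used and how multiply matching reads were handled is not given in the sources used here.

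GENCODE mouse release 21 (GRCm38) supplied symbols, positions and exon lengths. Genes kept by filterByExpr (minimum count of 10; 16115 genes) were normalized with TMM. edgeR 4.0.16 (R 4.3.3) fitted genotype alone in its quasi-likelihood test, and p-values were adjusted by Benjamini-Hochberg over all of them, with a threshold of 0.05. An SE is |log2 fold change| / sqrt(F). BLAST+ 2.17.0 found near-identical copies (at least 95% identity, 100 bases). The fit was tested on simulated counts, drawn without the GC trends that these libraries show. Members and lists were chosen with earlier results of these data known. The naming rule took the 10 members, Mtdh, called genes of each wider list (otherwise the 2 with the smallest p), tested genes within 1 Mb of Azin1, and the 5 most like Azin1. Copies, marker genes, Vti1b, Slc7a2, Atp13a2, Atp13a3, Nos2, Myc and the listed genes left untested were named after their values were seen. Alternatives were other scalings and filters, DESeq2 1.42.0, limma-voom (limma 3.58.1), a replicate block, a threshold of 0.01 and each library left out. Removing a GC and length trend (mgcv 1.9.3) and summing copies were added after seeing the data.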

Additional observations from a re-analysis of the deposited data

How the results depend on the processing

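All 10 genes kept the sign of their log2 fold change in each alternative, except Oaz1 (3 of 16 alternatives) and Oaz2 (1 of 16). Of the 3 past the threshold, Azin1 stayed past it in 16 of 16 alternatives, Arg2 in 15 and Amd1 in 11. Deviations from the group mean correlated at -0.274, -0.173 and -0.251 between same-numbered libraries. This cannot exclude pairing. The labels do not say what the numbers mark, and the GC slopes had opposite signs in each same-numbered pair. With the replicate block, 1 of the 10 genes (Azin1), 2 of the wider lists and 227 of all genes were called, against 3, 6 and 1023. With the GC and length trend removed these were 6, 15 and 2306, the members then being Azin1, Amd1, Arg2, Srm, Sms and Arg1. At an adjusted p of 0.01 they were 2, 2 and 393. Leaving out 1 library gave 2 to 4, 2 to 6 and 380 to 1094. The cause was not tested. The log2 ratio of Arg2 to Arg1 per kilobase in WT was 0.54 with exon length and reversed to -0.052 with the longest transcript. Of all called genes 52.1% were higher, against 43.1% with the GC and length trend removed, 45.2% with no filter and 45.8% with DESeq2. Depth limits Arg1 and Arg2, at 103 to 219 reads.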
